A study of Mus musculus with 30 samples.

Results

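The salivary transcriptome of the newborn mouse was described from 3 wild-type salivary arrays, set against the 12 wild-type arrays of brain, kidney, stomach and liver, 3 per tissue. These 15 arrays were chosen by the genotype and tissue in their labels, out of 30 in the series. The mice were neonatal, of mixed SV129/C57BL/6 background and of unknown gender, and were kept on standard chow. The other 15 arrays carried RNA of the same 5 tissues from mice null for ERRγ, an orphan nuclear receptor encoded by Esrrg. They served here as separate samples in which the wild-type pattern could be looked for again. Trizol-extracted total RNA was labelled with biotin and hybridised to Affymetrix MOE430A arrays. The labels do not say which salivary gland or glands were taken, whether tissue was pooled, or whether each array of a group had its own animal. The p-values therefore cover the spread between arrays, part of which may be technical. The number of arrays limits the precision.

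Salivary glands are branched epithelial glands. Acinar cells make and store the proteins and mucins of saliva and release them with a salt-rich fluid, duct cells modify that fluid, and myoepithelial cells squeeze the acini. In mice the submandibular, sublingual and parotid glands differ in the proteins they secrete, and the kallikreins and growth factors of the submandibular granular ducts are known to build up mainly after birth.

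Each value is a log2 signal of 1 probe set, a group of oligonucleotides for 1 transcript. Levels are compared between tissues within a probe set, not between probe sets. Dim signals scatter widely on this scale, so 5.36, the 40th percentile of all wild-type values, was taken as the background level, and tissue means under it were raised to it before the size of a difference was taken. All 22626 probe sets were tested in 1 limma fit of 5 group means, and adjusted p under 0.05 (Benjamini-Hochberg over all probe sets) was required for a call. A probe set was called salivary-high when it was higher in each of the 4 pairwise tests and by at least 1 over each raised tissue mean, and salivary-low in the mirror case.

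Some arrays stood apart from their group. On salivary replicate 3, 116 probe sets lay more than 1 above both other salivary arrays, against 31 on replicate 1 and 12 on replicate 2. On stomach replicate 3 there were 123, and on each of the other 11 arrays at most 25. Salivary replicates correlated at 0.943 to 0.954 across probe sets, somewhat below the 0.954 to 0.970 of the other tissues. For the Gapdh control, the 3' signal less the 5' signal, which grows as RNA degrades, was 3.24 ± 0.19 in salivary tissue (SD, n = 3), against 2.60 to 2.78 in brain, kidney and stomach and 4.51 in liver. Its part in the results was not tested.

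Compared with the mean of the 4 other tissues, 4397 probe sets were higher in salivary tissue (19.4% of those tested) and 3756 were lower (16.6%). Of the higher ones, 3954 had a salivary mean at or above the background level. All 3 salivary values lay above all 12 others for 1387 probe sets (6.13%) and below them for 449 (1.98%). The salivary-high rule was met by 231 probe sets (1.02%) that stood for 176 genes with 1 symbol each, and the salivary-low rule by 38 (0.168%) that stood for 27 genes. In 64 salivary-high probe sets the gap over the highest tissue was at least 2, and in 17 it was at least 4. At the edge of the rule, Slc25a35, Prom1 and Spcs3 lay just inside at gaps of 1.0 to 1.007, and Spcs2, Mia and Golph3 lay just outside at 0.997.

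**Figure D1:**
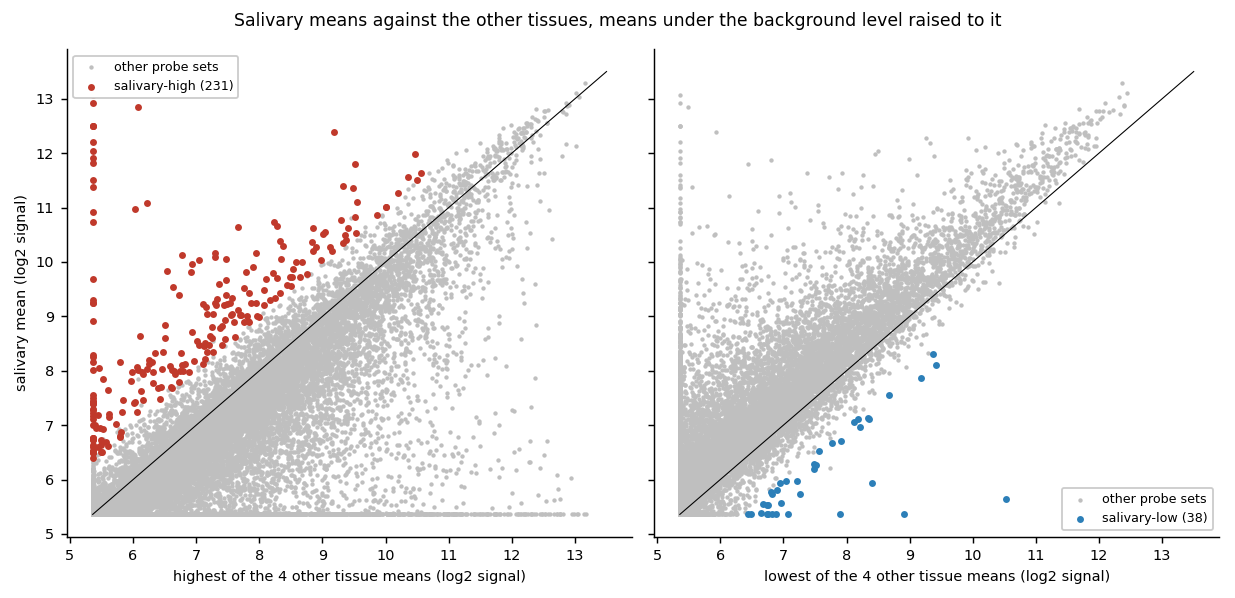
Each point is 1 of 22626 probe sets, with the wild-type salivary mean (log2 signal, n = 3) on the vertical axis against the highest (left) or lowest (right) of the 4 other tissue means, both raised to the background level of 5.36. The 231 salivary-high probe sets (red) lie along the whole range of salivary levels above the diagonal, and the 38 salivary-low ones (blue) form a sparse band under it.

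Secreted proteins of saliva had the widest gaps. Bpifa2, the parotid secretory protein, a lipid-binding protein of the palate-lung-nasal clone family, read 13, 12.88 and 12.92 on the salivary arrays, against means of 4.93 for brain, 4.43 for kidney, 4.15 for stomach and 4.83 for liver. All 4 reference means lay under background, and its gap over the background level was 7.57, at least 190-fold (limma, adjusted p at most 6.92e-13 in the 4 pairs). Car6, the secreted carbonic anhydrase of saliva, read 12.59, 12.43 and 12.49 in salivary tissue, against 4.29 to 5.01 for the other tissue means, a gap of 7.14. Pip, the prolactin-induced protein that binds actin and bacteria, read 12.28, 12.18 and 12.13, against 1.68 to 3.32. The 3 salivary arrays lay close together for these genes, and no array of another tissue came near them.

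Mucin-like and proline-rich proteins, which lubricate and coat the mouth, showed the same step. Prol1, a proline-rich mucin-like protein, read 12.53, 12.52 and 12.45 in salivary tissue, against 0.79 to 1.64 for the other tissue means. Mucl2, a small mucin-like protein, read 12.62, 12.35 and 12.50, against 0.29 to 2.34. Prpmp5, a proline-rich protein, read 12.13, 12.08 and 11.92. Gaps over the highest raised tissue were 7.14, 7.13 and 6.68 for these genes. The secretoglobins Scgb2b27 (11.78, 11.18 and 11.58) and Scgb1b27 (11.60, 10.39 and 10.92), small proteins of the androgen-binding protein family that neighbour each other on chromosome 7, had gaps of 6.15 and 4.95.

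Of the demilune and parotid proteins, Dcpp3 was even across arrays and Dcpp1 was not. Dcpp3 read 13.05, 12.75 and 12.76 in salivary tissue, against 5.48 to 6.08 in the others, a gap of 6.77. Dcpp1 read 9.19, 12.46 and 12.47, so that replicate 1 lay more than 3 under the others and still above all 12 arrays of other tissues, the highest of which read 2.90. The null salivary arrays read 9.5, 8.58 and 12.29 for Dcpp1 and 12.68, 13 and 12.64 for Dcpp3. These genes are near-identical copies, and their probe sets may share transcripts, so which copy each signal belongs to is uncertain.

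Proteins of mucosal defence were part of the group. Lpo, the lactoperoxidase that makes antibacterial hypothiocyanite, read 12.09, 11.87 and 11.80 in salivary tissue, against 3.02 to 3.47 for the other means, a gap of 6.56. Pglyrp1, which binds bacterial peptidoglycan, read 10.11, 9.68 and 9.72, against at most 6.53. The whey acidic protein-fold genes Wfdc12 (11.47, 11.16 and 10.61) and Wfdc18 (12.49, 12.34 and 12.33) had gaps of 4.87 and 3.21, and Wfdc18 averaged 9.18 in stomach. Pigr, the receptor that carries immunoglobulin A into secretions, read 7.68, 7.62 and 7.09, against at most 5.84. Mup5, a lipocalin of the major urinary protein cluster (11.81, 10.46 and 10.49), and the cystatin Cst10 (10.52, 11.04 and 10.63) had gaps of 5.56 and 5.37.

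The 60 bases before the start of transcription are shown for the secreted protein genes in which a TATA-like run was found, because these genes carry the widest gaps of the comparison. The sequences are from RefSeq (GRCm38.p6), 5′ to 3′ on the gene's strand, ending at the base before the start, with the matched run in capitals.
Bpifa2 (chr2:154008216-154008275, plus strand): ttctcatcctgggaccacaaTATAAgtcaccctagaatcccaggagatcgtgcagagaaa
Car6 (chr4:150201136-150201195, minus strand): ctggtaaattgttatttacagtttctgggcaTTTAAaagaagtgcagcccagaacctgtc
Mucl2 (chr15:103899313-103899372, minus strand): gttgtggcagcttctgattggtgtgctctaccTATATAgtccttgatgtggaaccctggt
Pip (chr6:41847489-41847548, plus strand): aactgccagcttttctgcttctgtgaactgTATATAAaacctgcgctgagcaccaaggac
Dcpp3 (chr17:23917398-23917457, plus strand): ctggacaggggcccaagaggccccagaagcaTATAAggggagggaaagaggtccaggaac
Dcpp1 (chr17:23880816-23880875, plus strand): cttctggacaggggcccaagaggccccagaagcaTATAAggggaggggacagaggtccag
Prpmp5 (chr6:132314744-132314803, minus strand): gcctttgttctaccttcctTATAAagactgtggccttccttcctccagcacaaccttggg
Wfdc18 (chr11:83708944-83709003, plus strand): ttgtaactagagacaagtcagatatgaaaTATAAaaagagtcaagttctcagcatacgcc
The run TATAA, the alternating run TATATA and the weaker run TTTAA were chosen after the letters had been read, and were searched on the gene's strand from 45 to 16 bases before the start. The TATAA run can overlap the alternating one, as in Pip. At least 1 of them was found in 8 of the 23 named salivary-high genes with a promoter entry (34.8%), in 23 of 141 salivary-high genes with an entry (16.3%) and in 896 of 9887 genes measured on the array (9.06%). Over all 27025 promoter entries the share was 9.04%, and on either strand the shares were 34.8%, 18.4%, 11.2% and 11.8% in the same order. Dcpp1 and Dcpp3 share the run and most of its surroundings, with 97.6% identity over their 300-base promoter entries, so they are not separate cases. CATATG, an E-box that Bhlha15 is known to bind, was found in the 250 bases before the start in 0 of 141 salivary-high genes, against 2.31% of measured genes. A match or its absence is a description of these letters.

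In the list of secretory proteins of salivary acini, 20 of 32 measured members were higher in salivary tissue than the mean of the 4 tissues and 7 were lower. The median difference was 2.76, against 0.07 over all probe sets. For this and the lists below, the shares over all probe sets were 19.4% higher and 16.6% lower than the mean of the 4 tissues. Of the 20, 18 had a salivary mean at or above the background level, and 13 members were salivary-high. Members lower in salivary tissue included Bpifb1 (3.91, 3.07 and 3.86 on the salivary arrays), Tff2 (2.89, 2.66 and 2.08) and Slpi (6.83, 6.22 and 6.03), a secreted palate-lung-nasal clone relative, a trefoil peptide and a protease inhibitor. Stomach was the highest tissue for each of these, at 11.82, 9.43 and 9.87. Amy1, the salivary amylase, read 2.89, 2.80 and 2.22 in salivary tissue, under background, against 9.78 in liver and 6.99 in brain. Dmbt1, a scavenger receptor protein of saliva and gut mucus, read 11.52, 11.80 and 11.48 in salivary tissue, against 11.07 in stomach, a pair that did not pass the test (adjusted p = 0.557), and at most 4.23 elsewhere. Agr2, a disulfide isomerase of mucus-making cells, averaged 8.60 ± 0.33 in salivary tissue (SD, n = 3), against 10.11 in stomach (adjusted p = 0.0111).

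Kallikreins, serine proteases that are abundant in the granular ducts of adult male mice, were mostly dim. Klk1, the tissue kallikrein, was the exception, at 10.73, 9.76 and 9.64 in salivary tissue, against 7.04 for kidney, 4.41 for stomach, 1.37 for liver and 0.78 for brain. Its gap over kidney was 3.01 (adjusted p at most 0.000256 in the 4 pairs), and its 2 other probe sets were also salivary-high. Klk1b11 read 7.13, 6.62 and 6.47 in salivary tissue, against at most 4.39, and was the only other salivary-high member. Of the 14 measured kallikreins, 7 were called higher (50%) and 5 lower (35.7%), against 19.4% and 16.6% of all probe sets. However, only 3 of the higher ones had a salivary mean at or above background, and 9 members were under it on all 3 salivary arrays. The genes of this cluster are close copies of each other, and their probe sets may share transcripts, so the assignment to 1 member is uncertain.

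Promoters of 3 kallikreins are given as the letters before their annotated starts, and do not bear on whether probe sets share transcripts. The capitals mark the run TTTAA, and Klk1 has none of the searched runs in the window.
Klk1 (chr7:44225300-44225359, plus strand): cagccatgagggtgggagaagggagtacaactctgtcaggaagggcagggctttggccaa
Klk1b11 (chr7:43995817-43995876, plus strand): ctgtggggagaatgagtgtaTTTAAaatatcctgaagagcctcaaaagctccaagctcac
Klk1b24 (chr7:44188176-44188235, plus strand): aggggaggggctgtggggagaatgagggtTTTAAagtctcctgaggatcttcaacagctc
Only part of the 300-base entries could be aligned, so the printed windows need not be matching stretches. The absence of a run in Klk1 depends on its annotated start. Klk1 shared 81.8% of 209 aligned bases with Klk1b11 and 81.2% of 218 with Klk1b24. Klk1b24 averaged 0.86 above the mean of the 4 tissues (adjusted p = 0.00252), with salivary values of 6.64, 5.92 and 5.62.

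Among growth factors of the ducts, Egf, epidermal growth factor, was salivary-high, with 9.72, 9.36 and 9.08 in salivary tissue, against 6.72 in kidney and at most 5.89 elsewhere. Fgf1, fibroblast growth factor 1, was also higher than the mean of the 4 tissues (7.86, 7.65 and 7.89), but not past the test against liver at 7.32 (adjusted p = 0.0506). The other 7 of 9 measured members did not pass the test. Mucins were represented by 8 genes, of which Prol1 alone was higher. Muc1, a membrane mucin, and Muc5b, a gel-forming mucin, were lower, at 1.52 to 2.48 and 3.03 to 5.19 over the salivary arrays, with stomach at 9.75 and 11.16.

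Transcription factors of secretory epithelium were higher as a group, 18 of 22 members with 2 lower and a median difference of 1.13. Bhlha15, the acinar factor also called Mist1 that scales up the secretory apparatus, read 9.68, 9.65 and 9.30 in salivary tissue, against 6.63 in stomach and at most 4.0 elsewhere. The epithelial ETS factors Ehf (10.06, 10.16 and 10.08) and Elf5 (9.68, 9.74 and 9.58) had gaps of 2.80 over stomach and 2.19 over kidney. Ehf and Elf5 lie within 3 measured genes of each other on chromosome 2. Spdef, an ETS factor of mucus-making cells, read 8.25, 8.23 and 7.77, against 6.59 in stomach, and Creb3l4 and Creb3l1, membrane-bound factors tied to secretory load, had gaps of 2.0 and 1.76.

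Tfcp2l1, a factor of duct epithelium, read 10.84, 10.76 and 10.82 in salivary tissue, against 9.45 ± 0.10 in kidney (SD, n = 3), a gap of 1.36 that did not pass the test (adjusted p = 0.144). The test takes 1 spread over all 5 tissues, and the dim brain signals, at 2.01 ± 2.17 (SD, n = 3), widened it. The p-value therefore does not measure the spread of the salivary and kidney arrays alone. Foxa1, a pioneer factor of endoderm and gland epithelium, read 10.10, 10.18 and 9.85, against 9.85 in stomach (adjusted p = 0.425). Its relatives Foxa2 and Foxa3 were lower than the mean of the 4 tissues by 1.03 and 0.74 (SE 0.14 and 0.17), and lay below stomach and liver. Xbp1, the factor of the unfolded protein response, was higher by 1.17 ± 0.07 (SE). Esrrg read 6.57, 6.33 and 6.34, a difference of 0.29 that did not pass the test (adjusted p = 0.0642).

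The machinery that makes and exports secreted proteins was raised broadly. Of 43 genes of translocation into the endoplasmic reticulum, folding and export, 37 were higher, 1 was lower and the median difference was 0.83. Sec23b, an inner coat subunit of vesicles that leave the reticulum, read 11.51, 11.48 and 11.19 in salivary tissue, against 8.42 to 9.33 for the other means, a gap of 2.06. Sec11c, a subunit of the signal peptidase, read 10.80, 10.69 and 10.39, against at most 8.85. Ssr2, of the translocon-associated complex, and Spcs3, of the signal peptidase, were also salivary-high. Hspa5, the chaperone BiP, read 12.16, 12.15 and 12.13 and was higher than the mean of the 4 tissues by 0.58 ± 0.06, but not past the test against liver at 12.05 (adjusted p = 0.378). The lower member was Sar1b, a small GTPase of the same coat, by 0.29 ± 0.09, with liver the highest at 10.62. Beside this list, 28 of 30 cytosolic ribosomal protein genes were higher in salivary tissue and none was lower, with a median difference of 0.49.

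Sugar-adding enzymes for mucin-type glycans included 6 salivary-high genes, and 11 of 25 members were higher with 1 lower. St6galnac1, which adds sialic acid to mucin glycans, read 7.28, 7.30 and 7.31 in salivary tissue, against -0.34 to 1.34 for the other means. Gne, the first enzyme of sialic acid synthesis, read 10.46, 10.55 and 10.14, against 8.32 in liver and at most 6.92 elsewhere. St3gal1, a sialyltransferase, and Galnt3, which starts O-glycan chains, had gaps of 2.32 and 1.43. Genes of secretory vesicles were more evenly divided, with 7 of 22 higher (31.8%) and 8 lower (36.4%), against 19.4% and 16.6% of all probe sets. Rab27b, a GTPase of granule docking, read 8.33, 8.37 and 8.38 in salivary tissue, against 7.83 in stomach, a gap of 0.53. Scg3 and Chga, granins of neuroendocrine granules, were lower, with salivary values of 1.04 to 3.24 and 4.10 to 4.92, against 9.63 and 8.24 in brain.

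Fluid secretion runs on chloride entry at the base of the acinar cell, chloride exit at its apex and water through aquaporin 5. Aqp5, that water channel, read 9.15, 9.5 and 9.08 in salivary tissue, against 0.62 to 1.33 for the other means, a gap of 3.88 (adjusted p at most 7.71e-09). Slc12a2, the sodium-potassium-chloride cotransporter, read 11.38, 11.12 and 10.84, against at most 9.55 in stomach. Kcnn4, a calcium-activated potassium channel, read 11.63, 11.29 and 11.16, against 9.48 in liver and at most 6.54 elsewhere. Ano1, the apical calcium-activated chloride channel, read 6.78, 7.08 and 7.42 and was higher in all 4 pairs, with a gap of 0.96 over stomach. Lrrc26, a subunit of the large-conductance potassium channel, read 10.25, 10.16 and 9.95, a gap of 3.35.

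Over the 30 measured genes of fluid and ion secretion, 11 were higher (36.7%) and 7 lower (23.3%), against 19.4% and 16.6% of all probe sets. Their median difference was 0.21. Lower members included Car2, cytosolic carbonic anhydrase, at 6.55, 6.89 and 7.15 in salivary tissue, against 11.71 in liver and 11.40 in stomach, and the water channels Aqp3 and Aqp4. Chrm1 and Chrm3, the muscarinic receptors that drive salivation, were under background on all 3 salivary arrays and in every other tissue mean. Of 14 autonomic receptor and neurotrophic genes, 8 were under background on all 3 salivary arrays.

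Duct and myoepithelial genes were higher as well. Of 26 duct genes 18 were higher, none was lower, 2 were salivary-high and the median difference was 1.20. Against brain 19 were higher and none lower, where 23.3% and 22.1% of all probe sets were. Against liver 17 were higher and 5 lower (26.5% and 15.2% of all). Against kidney 10 were higher and 3 lower (14.3% and 16.2% of all), and against stomach 10 and 4 (17.7% and 14.0% of all). Epcam, an epithelial adhesion protein, read 10.06, 9.83 and 10.12 in salivary tissue, against 8.68 in stomach and 8.5 in kidney, and Prom1, a protein of apical membrane protrusions, had a gap of 1.003 over kidney. Krt7, a keratin of simple epithelia, read 8.53, 8.53 and 8.01, and its differences from stomach at 8.43 and kidney at 8.11 did not pass the test (adjusted p = 0.829 and 0.455). In bulk tissue, fewer cells of a type and less RNA per cell cannot be told apart.

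Of 16 myoepithelial genes, 8 were higher than the mean of the 4 tissues and 1 was lower, but none was higher than in stomach and 11 were lower than there, where 17.7% and 14.0% of all probe sets were. Acta2, smooth muscle actin, read 11.79, 11.53 and 11.58 in salivary tissue, against 12.43 in stomach and 11.43 in kidney. The basal keratin Krt5 read 7.06, 7.56 and 7.30, against 10.79 in stomach and at most 3.57 elsewhere, and the basal factor Trp63 read 7.65, 7.61 and 7.23, against 8.57 in stomach. These basal genes therefore lay between stomach and the other 3 tissues.

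Genes of branching and of epithelial progenitors included 4 salivary-high members, and 19 of 40 were higher with 3 lower and a median difference of 0.48. Foxc1, a forkhead factor of head mesenchyme and gland epithelium, read 8.96, 9.04 and 9.05 in salivary tissue, against 7.55 in kidney and at most 6.90 elsewhere. Dusp6, a phosphatase switched on by fibroblast growth factor signalling, read 9.24, 9.16 and 9.34, a gap of 1.96. Six4 and Sox9, a homeobox factor and a progenitor factor, had gaps of 1.5 and 1.17, and another probe set of Six4 did not share its direction. Fgf7, a growth factor of the mesenchyme, was higher by 0.87 ± 0.16 (SE). Fgf10, required for salivary bud growth, was under background in every tissue mean. Lower members were Wnt5a, Ptch1 and Bmp4, ligands and a receptor of branching signals.

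None of 31 Hox genes, which mark the trunk, was higher than the mean of the 4 tissues, 12 were lower (16.6% of all probe sets were), and 22 were under background on all 3 salivary arrays. Hoxa5 read 3.86, 4.56 and 4.44 in salivary tissue, against 7.70 in kidney and 7.09 in stomach, and Hoxc8 read 4.26, 2.98 and 2.55, against 7.91 in kidney and 7.36 in stomach. Of the same 31 genes, 18 were lower than in kidney (16.2% of all probe sets were), 9 lower than in stomach (14.0% of all) and 4 lower than in liver (15.2% of all), and 2 were higher than in brain (23.3% of all). Among 29 cranial and oral patterning factors, 8 were higher and 5 lower, where 19.4% and 16.6% of all probe sets were, with 5 of the 8 at or above background. Prrx1, a homeobox factor of head and limb mesenchyme, read 8.21, 8.19 and 8.11 in salivary tissue, against at most 5.80, and was the 1 salivary-high member. Pax9, a paired-box factor of mouth and pharynx, read 5.91, 6.76 and 5.80, against 2.50 to 2.94. Tcf21 and Foxd1, mesenchymal factors of visceral organs, were lower by 2.86 ± 0.31 and 2.45 ± 0.52.

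**Figure D2:**
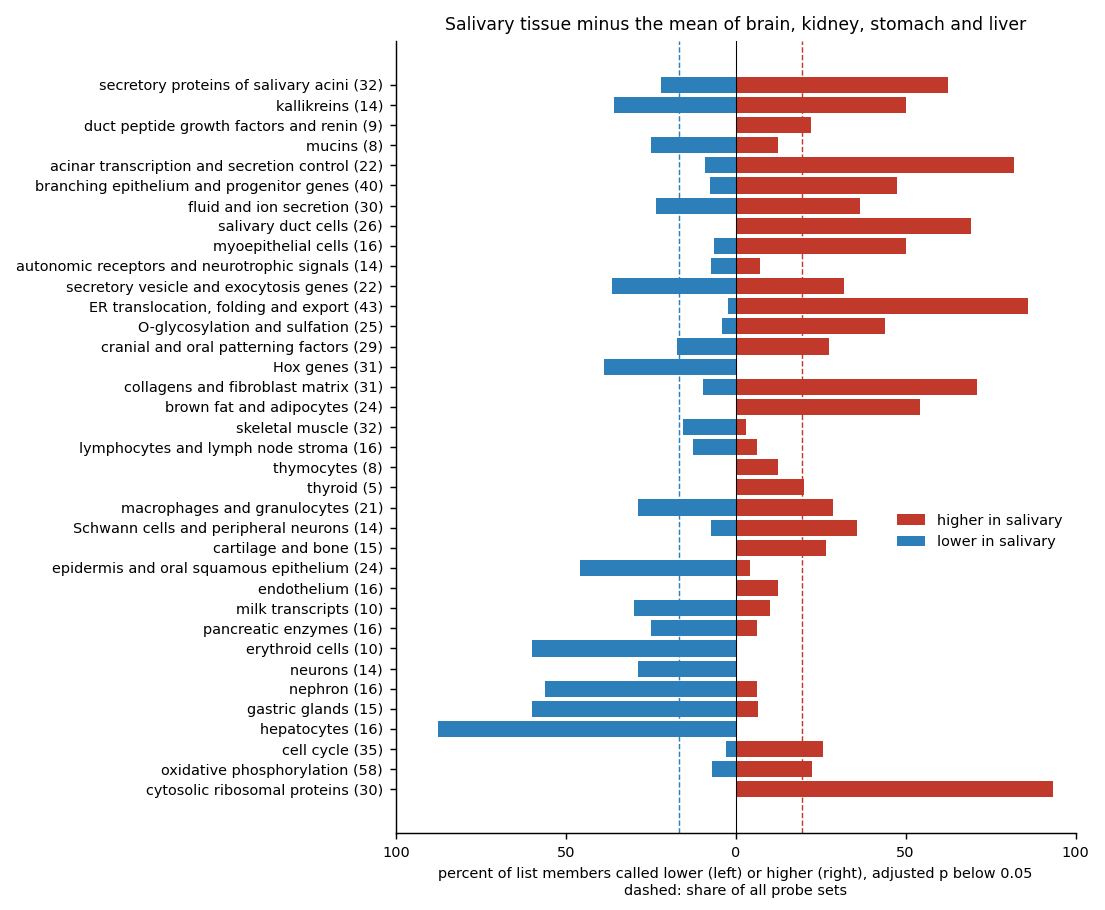
Percent of the measured members of each gene list called higher (right, red) or lower (left, blue) in wild-type salivary tissue than the mean of brain, kidney, stomach and liver, with the number of members in parentheses and dashed lines at the shares over all probe sets, 19.4% and 16.6%. The export list (37 of 43), the acinar transcription list (18 of 22) and ribosomal protein genes (28 of 30) reach far to the right, and hepatocyte genes (14 of 16) far to the left.

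Of 31 collagen and fibroblast matrix genes, 22 were higher and 3 lower, with a median difference of 1.19. Yet 6 were higher and 13 lower than in stomach, where 17.7% and 14.0% of all probe sets were. Fap, a protease of activated fibroblasts, read 9.02, 9.14 and 8.97 in salivary tissue, against at most 7.17, and Postn, the matrix protein periostin, read 11, 11.28 and 11.51, against at most 10.20. Both were salivary-high. Of 21 macrophage and granulocyte genes, 6 were higher and 6 lower (28.6% each), against 19.4% and 16.6% of all probe sets. In this list 15 were lower than in liver, where 15.2% of all probe sets were. Of the mast cell proteases on that list, Cpa3, Cma1 and Mcpt4 were among the higher ones, and the tryptase Tpsb2 is not described here. Tpsab1, a related tryptase outside the list, was uneven over the salivary arrays, at 4.27, 6.96 and 6.89. Cpa3, carboxypeptidase A of mast cell granules, read 9.52, 9.69 and 9.59 in salivary tissue, against at most 7.36, and Cma1, a mast cell chymase, read 8.63, 8.81 and 9.08, against at most 6.51. Mcpt4, another chymase, was higher too, at 5.56, 6.20 and 5.79, against at most 2.71.

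Of 16 endothelial genes, 2 were higher and none was lower, where 19.4% and 16.6% of all probe sets were. Of 14 Schwann cell and peripheral neuron genes, 5 were higher and 1 lower, and of 15 cartilage and bone genes 4 were higher. The lymphocyte list had 1 of 16 genes higher and 2 lower, the thymocyte list 1 of 8 higher, and the thyroid list 1 of 5 higher, with its salivary mean under background. Of 24 epidermal and oral squamous genes, 11 were lower and 1 higher, and 17 were lower than in stomach, where 14.0% of all probe sets were.

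Brown fat genes moved with 1 salivary array. Ucp1, the uncoupling protein that makes heat in brown fat, read 5.99, 4.04 and 12.14 on the salivary arrays, against 1.49 to 2.10 for the other tissue means, and 11.31, 12.75 and 11.02 on the null salivary arrays. Adipoq, the adipocyte hormone adiponectin, read 8.36, 8.74 and 10.63, against at most 4.54, and was above all 12 arrays of other tissues on each salivary array. Cidea, a lipid droplet protein of brown fat, read 4.64, 4.11 and 9.21, against 1.81 to 4.87. Replicate 3 was thus the high one for all of these genes, and for Adipoq the other arrays were high too.

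The linear signals of the 24 brown fat and adipocyte genes summed to 6370.3, 6479.3 and 19759 on the salivary arrays, against 2159.3 to 2432.1 in brain, 3556.9 to 3953.2 in kidney, 3923.2 to 4218.3 in stomach and 7052.7 to 7784 in liver. Of these genes, 13 were higher and none lower, and 10 were higher and 2 lower without salivary replicate 3. Of the 84 genes more than 1 higher on replicate 3 than on both other salivary arrays, 11 were on this list, and 2 of the 116 such probe sets were salivary-high. Genes outside this list included Acadm (9.25, 9.08 and 11.02) and Hadhb (9.97, 9.88 and 11.46), of fatty acid oxidation. The Y-chromosome genes Eif2s3y (1.54, -0.44 and 7.47) and Uty (3.51, 3.81 and 6.45) were also among the 84. A probe set of Xist, an X-chromosome transcript, read 11.13, 11.16 and 6.96. Replicate 3 thus also differed from the other salivary arrays in sex-linked genes, and the part of sex was not tested. Without replicate 3, the salivary-high rule gave 248 probe sets, 220 of them among the 231. Ucp1 was salivary-high with a gap of 2.03, at a salivary mean of 7.39 ± 4.23 (SD, n = 3). Its difference from the mean of the 4 tissues was 5.6 ± 1.06 with all arrays (limma, SE; adjusted p = 0.00068). Without replicate 3 it was 3.23 (adjusted p = 0.000258). The salivary values then left, 5.99 and 4.04, had a mean under background, like the other tissue means. The 3.23 is therefore a difference between dim signals.

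**Figure D3:**
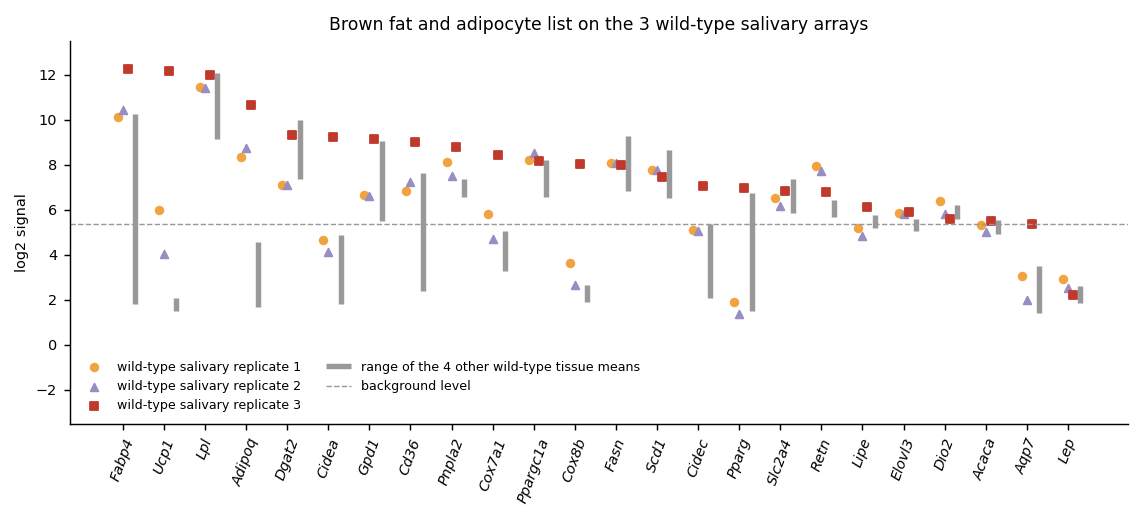
Log2 signal of the 24 measured brown fat and adipocyte genes on the 3 wild-type salivary arrays (orange circles, replicate 1, purple triangles, replicate 2, red squares, replicate 3), with the range of the 4 other tissue means as a grey bar and the background level of 5.36 as a dashed line. Replicate 3 lies above the others for Ucp1, Cidea, Cox7a1, Cox8b and Pparg, while the 3 arrays lie together for Ppargc1a, Fasn and Scd1.

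Markers of the 4 reference tissues were low in salivary tissue. All 16 hepatocyte genes were lower than in liver, where 15.2% of all probe sets were. Of nephron genes, 14 of 16 were lower than in kidney (16.2% of all). Gastric gland genes were lower than in stomach in 14 of 15 cases (14.0% of all). Neuronal genes were lower than in brain in 13 of 14 cases (22.1% of all). Alb, serum albumin, read 6.55, 5.72 and 5.79 in salivary tissue, against 12.94 in liver, and Umod, the kidney protein uromodulin, read 2.86, 2.63 and 3.86, against 10.75 in kidney. Atp4a, of the gastric proton pump, read 5.48, 5.89 and 5.64, against 10.46 in stomach, and Snap25, a synaptic protein, read 2.79, 3.94 and 3.30, against 10.02 in brain. The summed signal of the hepatocyte list was 444.3 to 775.5 over the salivary arrays and 2879.3 to 20202 over the stomach arrays. Skeletal muscle genes were under background on all 3 salivary arrays in 24 of 32 cases. Acta1, skeletal muscle actin, read 1.31, 1.74 and 4.66 on the salivary arrays, against 6.50 in stomach. The muscle list summed to 602.5 to 757.2, against 606.5 to 1455.5 over the 12 arrays of other tissues. Milk transcripts, which would come from mammary tissue, numbered 1 higher (Wfdc18) and 3 lower of 10, and pancreatic enzymes 1 higher, with its salivary mean under background, and 4 lower of 16.

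Each tissue in turn gave its own lower genes. By raised means the largest rises were in Bpifa2, Car6, Prol1, Mucl2, Dcpp3 and Pip in each of the 4 pairs. All of these but Dcpp3 were under background in all 4 tissues, so that raising gives them 1 size in every pair. Against brain, 5264 probe sets were higher in salivary tissue (23.3%) and 5005 lower (22.1%), of which 531 and 665 differed by at least 4-fold after raising. The largest falls were in Ttr, which carries thyroid hormone, in the neuronal membrane and adhesion genes Gpm6a and Ncam1, and in Pkia, Gap43 and Stmn3. Gpm6a averaged 4.34 ± 0.38 in salivary tissue and 11.78 ± 0.13 in brain (SD, n = 3 each). All 35 cell cycle genes were higher in salivary tissue than in brain, and 20 of them were lower than in liver, where 15.2% of all probe sets were.

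Against kidney, 3244 probe sets were higher (14.3%) and 3656 lower (16.2%), with 216 and 276 by at least 4-fold. The largest falls were in Cdh16, a kidney cadherin, in Umod, in Calb1, a calcium-binding protein, in Npnt, a matrix protein of the nephron, and in Gpx3 and Kap. Cdh16 averaged 3.99 ± 1.09 in salivary tissue and 11.20 ± 0.07 in kidney. Against stomach, 3995 were higher (17.7%) and 3165 lower (14.0%), with 133 and 296 by at least 4-fold. Those that fell most were Bpifb1, the gastrokines Gkn2 and Gkn1, the pepsinogen Pga5, Lypd8 and Lor, the loricrin of cornified epithelium. Gkn2 averaged 4.85 ± 1.08 in salivary tissue and 12.47 ± 0.10 in stomach. Without stomach replicate 3, which stood apart above, 2965 were higher and 2639 lower.

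Against liver, 5989 probe sets were higher (26.5%) and 3441 lower (15.2%), with 400 and 642 by at least 4-fold. The genes that fell most, Apoa1, Ahsg, Afp, Serpina1b, Fgb and Fabp1, encode plasma proteins and the liver fatty acid binding protein. Apoa1, the main protein of high-density lipoprotein, averaged 2.57 ± 0.36 in salivary tissue and 13.18 ± 0.10 in liver. Across all probe sets, the salivary mean profile correlated at 0.907 with kidney, 0.905 with stomach, 0.835 with brain and 0.834 with liver, a description across probe sets, which are not independent.

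Genes lower in salivary tissue than in each of the 4 tissues were few. Ttr read 7.68, 5.10 and 4.14 on the salivary arrays, against 10.53 to 12.76 for the tissue means, a gap of 4.89 under the lowest (adjusted p at most 1.32e-05 in the 4 pairs), and replicate 1 was the highest. On null salivary arrays it read 10.81, 6.54 and 10.21, and its contrast differed between genotypes by 3.66 ± 0.79 (SE; adjusted p = 0.00754), so Ttr was not salivary-low there. The hepatocyte list summed to 600.8 to 2433.7 on null salivary arrays, against 444.3 to 775.5 on wild-type ones. These sums include Ttr itself, so they are not a measure of liver transcripts separate from it. The part of liver transcripts in the result was not tested. Clu, clusterin, an extracellular chaperone, read 5.06, 6.27 and 5.90, against 7.26 in brain and 8.01 to 9.81 elsewhere. Nipsnap1, a mitochondrial matrix protein, read 6.15, 6.36 and 6.29, against at least 7.52. Slc2a1, a glucose transporter of barrier tissues, read 6.09, 6.27 and 5.58, against at least 7.22. The 12 named salivary-low genes were taken only from probe sets with all 3 salivary values below all 12 others (449, 1.98% of those tested).

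Lipid enzymes were among the other named salivary-low genes. Lpin2, a phosphatidate phosphatase, read 5.04, 5.58 and 5.26, against 6.82 to 8.40. Elovl6, a fatty acid elongase, read 5.86, 5.85 and 6.89, a mean of 6.20 ± 0.60 (SD, n = 3), and Ptdss2, phosphatidylserine synthase, averaged 4.91 ± 1.09. In null arrays Lpin2 was salivary-low too. Elovl6 and Ptdss2 did not pass the test against the mean of the 4 tissues there (limma, adjusted p = 0.268 and 0.16). The contrast of Elovl6 differed between genotypes by 1.30 ± 0.33 (SE; adjusted p = 0.0256). Nupl1, a nucleoporin, read 5.03, 6.58 and 6.20, against at least 8.41, but none of its 3 other probe sets was called lower. Krtap12-1, a keratin-associated protein gene, read 4.78, 4.73 and 4.54, against at least 6.89, and its other probe set did not share the direction. Ehd1, Bola2 and Eif5, of endocytic recycling, iron-sulfur assembly and translation initiation, completed the 12. Of their other probe sets, 1 of 3 was called lower for Ehd1, 2 of 4 for Bola2 and 0 of 3 for Eif5. In null arrays Ehd1 did not pass the test against the mean of the 4 tissues (adjusted p = 0.143).

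The null arrays gave a comparison that shares no array with the wild-type one. In them 239 probe sets were salivary-high (1.06%) and 45 salivary-low (0.199%). Of these, 144 were salivary-high in both genotypes, 62.3% of the wild-type and 60.3% of the null group, and 17 were salivary-low in both, 44.7% of the wild-type and 37.8% of the null group. Of the 231 wild-type salivary-high probe sets, 227 were higher than the mean of the 4 tissues in null arrays, where 15.5% of all probe sets were. Of the 24 named salivary-high probe sets 23 were salivary-high there too. The other was the named probe set of Klk1, while 1 of the 2 other Klk1 probe sets, at a null mean of 7.0, was salivary-high in both genotypes. Bpifa2 read 12.66, 13.05 and 12.73 on the null salivary arrays, Car6 12.27, 12.36 and 12.47, and Aqp5 8.13, 8.54 and 8.59. The Esrrg probe set averaged 6.39 on null and 6.41 on wild-type salivary arrays. Whether this probe set lies inside the deletion is unknown here, so it cannot serve as a check of the genotypes.

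The difference of the salivary contrast between genotypes passed the test for 869 probe sets (3.84%), and 3620 had an unadjusted p under 0.05. Among salivary-high probe sets with 1 symbol, 12 genes passed. Klk1 read 7.05, 5.62 and 6.30 on null salivary arrays, against 10.73, 9.76 and 9.64 on wild-type ones, and its contrast was lower by 2.39 ± 0.68 in null arrays (SE; limma, adjusted p = 0.0456). The kidney means of this probe set were 1.35 in null and 7.04 in wild-type arrays. The adjusted p was 0.0519 with the replicate number as a block, and 0.0211 to 0.138 when null arrays were left out in turn. Its other probe sets, at 6.40 in null against 9.82 in wild-type means and 7.0 against 10.06, did not pass the test of the difference (adjusted p = 0.324 and 0.104). Spcs3 and Sec23b of protein export had smaller contrasts in null arrays, by 0.67 ± 0.12 and 0.44 ± 0.13, and Has2, a hyaluronan synthase, by 1.34 ± 0.31.

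A second probe set of Pip went the other way. It read 11.10, 9.55 and 10.21 on null salivary arrays, against 9.09, 7.83 and 7.95 on wild-type ones, and its contrast was larger by 2.31 ± 0.46 in null arrays (adjusted p = 0.00416). The other Pip probe set, the one described first, averaged 12.14 in null and 12.20 in wild-type salivary arrays (adjusted p = 0.89 for the difference). Gpr155, an integral membrane protein, also had a larger contrast in null arrays, by 1.12 ± 0.21. Beside these differences, brown fat genes summed to 18075 to 36609 on null salivary arrays, against 6370.3 to 19759 on wild-type ones, muscle genes to 1231.9 to 2229.2 against 602.5 to 757.2, and cell cycle genes to 5041 to 5430.8 against 11766 to 13542. Their part in the result was not tested.

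**Figure D4:**
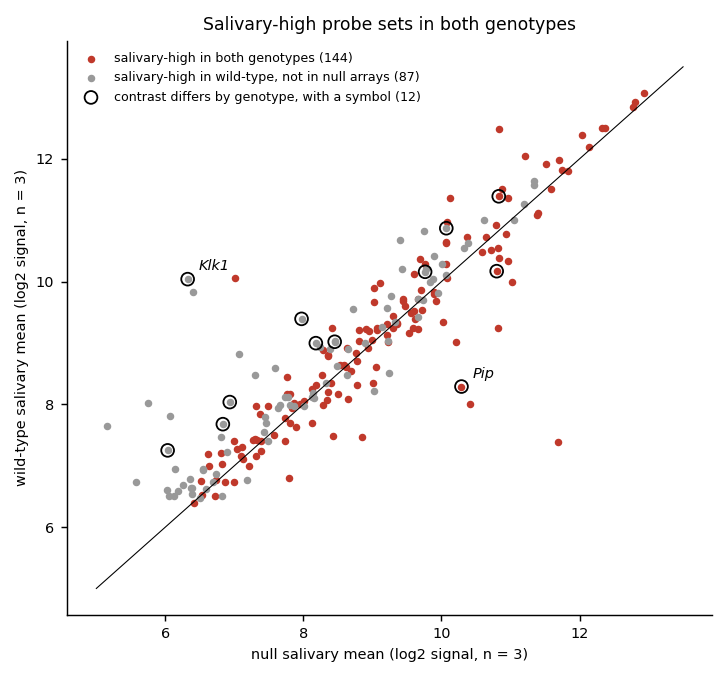
Mean log2 signal of the 231 wild-type salivary-high probe sets on the 3 null salivary arrays (horizontal axis) against the 3 wild-type salivary arrays (vertical axis), with the line of equality. Red points (144) were salivary-high in both genotypes and grey points only in wild-type arrays, and circles mark the 12 genes whose contrast differed by genotype, with Klk1 at 6.32 in null and 10.04 in wild-type and the second Pip probe set at 10.29 and 8.29.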

How the data were processed

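RNA of 5 tissues was measured on MOE430A arrays, 3 per genotype and tissue. The authors deposited log2 signals that the submitters' processing notes name as MAS5, a summary of perfect-match and mismatch probes. Its version and the chip settings are not stated in the labels or notes. Base 2 was settled from the values: the 2% trimmed mean of the linear signals is then 149.988 to 150.008 on every array. Values were used as given.

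Of 22690 probe sets, 64 array controls were left out, and 22626 remained. By the probe annotation, 20380 have 1 symbol, 691 have several and are not named, and 1555 have none. Groups were taken from the labels. Group means of the 15 wild-type arrays were fitted in limma 3.58.1 (R 4.3.3), with eBayes moderation that follows the mean-variance trend and without a filter on low values, and p-values were adjusted by Benjamini-Hochberg over all 22626 probe sets for each contrast. The 15 null arrays were fitted in the same way, with their own background level of 5.41, and the difference between genotypes came from a fit of all 30 arrays.

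Named genes are the 24 salivary-high and 12 salivary-low genes with the widest gaps and no overlap with the 12 other arrays, the 6 largest rises and falls of each pair, members of the salivary lists, up to 4 members of other lists with a few defining markers, and salivary-high genes whose contrast differed by genotype. Lists held 886 genes, of which 765 matched, each represented by its probe set with the highest mean. The members and lists were chosen with earlier results of these data known. The steps were also tested on simulated data, with 200 of 22626 probe sets changed. Of 100 changes of size 1, 95 were called in the right direction, and of 100 of size 2, 99 were. False calls made up 8.06% of all calls. The salivary-high or salivary-low rule caught 24 of the 100 changes of size 1 and 96 of the 100 of size 2. Promoter sequences matched 23 of the 24 named salivary-high genes. Alternatives covered the filter, the background level, the size of the gap, the threshold, normalization, the spread model, the replicate block, and leaving out each array or tissue.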

Additional observations from a re-analysis of the deposited data

Results flagged for a closer look

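One of the 2 probe sets of Pip had a salivary contrast that differed between genotypes by 2.31 on the log2 scale (null minus wild-type, limma interaction, adjusted p = 0.00416). The adjusted p stayed between 0.00118 and 0.0296 when each null array was left out in turn, while the other probe set did not share the difference (adjusted p = 0.89). One probe set of Klk1 differed by -2.39 in the same test (adjusted p = 0.0456), and the 2 other Klk1 probe sets did not pass it.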

How the results depend on the processing

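No alternative reversed or removed any of the counts of called probe sets, and those that moved by over 1.5 times were these. At adjusted p under 0.01, 2100 probe sets were higher than in kidney and 2248 higher than in stomach. Raising means to the 60th percentile instead of the 40th left 17 salivary-low probe sets, and a gap of at least 2 left 64 salivary-high and 4 salivary-low. Without brain the salivary-low count was 105, without liver 106, and without stomach there were 402 salivary-high and 76 salivary-low, since fewer tissues had to be passed.

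Leaving out 1 array at a time gave 216 to 248 salivary-high and 35 to 48 salivary-low probe sets. Against the mean of the 4 tissues it gave 3500 to 4427 higher and 3137 to 3822 lower, against brain 4749 to 5337 and 4449 to 5118, against kidney 2671 to 3360 and 2996 to 3788, against stomach 2965 to 4144 and 2639 to 3272, and against liver 5438 to 5927 and 3077 to 3405. In null arrays the ranges were 214 to 252 salivary-high, 40 to 51 salivary-low, 127 to 146 and 14 to 19 in both genotypes, and 653 to 955 for the difference between genotypes.

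With every value floored at the background level, the differences of Krt17, Atp6v1b1 and Cnn1 turned to -0.032, -0.072 and -0.079, against 1.96, 1.26 and 1.56 as reported. The salivary values of Krt17 and Atp6v1b1 were all under 5.36, and those of Cnn1 were 6.30 to 6.62. Over named genes, list members and settings, 179 values lost the call and 74 gained it in the same direction. A further 10408 were counted as unchanged. Values that did not pass in the main fit could change sign and still be counted among these. Of counts over lists, 158 of the alternatives moved by over 1.5 times and 1570 did not. The median difference of all probe sets was 0.067 as reported, 0.038 after quantile normalization and 0.047 with equal array medians.

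Replicate numbers were not taken as pairs in the main fit, since the labels do not say what they mark. Deviations of salivary arrays and same-numbered wild-type arrays of other tissues correlated at -0.07 to 0.19, with a median of 0.088. For different numbers the range was -0.14 to 0.14, with a median of -0.057. With X and Y genes left out, the medians lay closer together, at 0.044 for the same number and -0.032 for different numbers. The ranges were then -0.10 to 0.17 and -0.15 to 0.13. Xist was low on replicate 3 of all 5 wild-type tissues and on replicate 1 of all 5 null tissues. This is a hint from the data, and not from the labels, that arrays of 1 number may share a source. With the number as a block there were 233 salivary-high and 39 salivary-low probe sets.

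Signal over background limits these data: differences of genes under 5.36 in several tissues are bounds, and probe sets of the Dcpp, Klk1, secretoglobin and proline-rich families may share transcripts. With 3 arrays a group, the gland and the number of animals not in the labels, and brown fat genes high on 1 salivary array, levels of adipocyte genes are the least certain.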
